A study of Rattus norvegicus with 99 samples.

Results

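The interventricular septum (Spt) is the muscular wall shared by both ventricles, and it was examined here after aortic banding at the compensated stage, when the heart has thickened but has not yet failed. The members were chosen by their titles alone. They are the 7 Spt libraries of aortic-banded rats (AOB-H) and the 7 Spt libraries of sham-operated rats (Sham-H) of the same stage, 14 of 99 libraries in the series. All animals were male and of the first generation of a cross of female Wistar Kyoto with male Lewis rats. The study's account describes banded rats of both sexes. In AOB-H a clip was placed around the aorta without narrowing it at first, so that the constriction developed as the rat grew, whereas Sham-H were sham-operated. By the labels all 14 rats were 11 weeks old, 7 weeks after surgery (ages differ in the study's account). From each rat came 1 bulk polyadenylated RNA library of the septum and others of its left (LV) and right ventricle (RV). Spt libraries of 4 rats in left heart failure (AOB-F) and of their 3 shams (Sham-LF), 30 weeks old and 24 weeks after surgery, are set beside them and come from other animals. The fit below also held Spt libraries of 7 rats with a banded pulmonary artery (PAB-H), of the compensated stage and 11 weeks old. It further held those of pulmonary-banded rats in right heart failure (PAB-F) and of their shams (Sham-RF). By the labels, PAB-F and Sham-RF were older than 11 and younger than 30 weeks. Because the tissue is a mixture of cells, fewer cells of a type and less RNA per cell cannot be told apart in any value below.

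A narrowed aorta raises the pressure against which the left side of the heart ejects, and the septum carries part of that load together with the LV free wall. Loaded heart muscle is known to turn on genes of the fetal program, among them those of the natriuretic peptides and of skeletal α-actin, to thicken its fibers, to lay down extracellular matrix and to lower the expression of genes for fatty acid oxidation and mitochondrial respiration. Stretch is sensed in part at the Z-disc and the I-band of the sarcomere, where ankyrin repeat proteins bind titin.

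No gene passed the test at an adjusted p under 0.05 in AOB-H against Sham-H, 0 of 11624 genes tested (0%), by edgeR's quasi-likelihood test in the fit of all 33 Spt libraries. The lowest adjusted p was 0.153. At an unadjusted p under 0.05 there were 1851 genes (15.9%), of which 657 were higher (5.65%) and 1194 lower (10.3%) in AOB-H. These values depend on the other Spt libraries in the fit. In the same test on the 14 libraries alone the lowest adjusted p was 0.604, and 853 of 11130 genes (7.66%) had an unadjusted p under 0.05. On the same 33 libraries DESeq2 called 1 gene, Ankrd23, and limma voom with library quality weights called 2, Eno3 and RGD1306750. In what follows, "higher" and "lower" therefore describe values with an unadjusted p, and none of them passed the correction for 11624 genes. Levels are given as CPM (counts of a gene relative to the library total, after TMM scaling), and fold changes are log2 values with their SE, for 7 against 7 libraries.

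The AOB-H libraries held 14522710 to 20034828 counts (median 19461977) and the Sham-H libraries 14688755 to 22134595 (median 18434922), and the difference in depth was small beside its spread (n = 7 each, exact two-sided permutation test of the means, p = 0.932). Sham-H replicate 5 stood apart from the other 13. Its TMM factor was 0.789, its first principal component, which held 48.6% of the variance of the 14 libraries, was -73.3 where the other 13 lay at -14.8 or above, and it had the lowest level of all 14 in 3759 genes and the highest in 3410. Across genes, its deviation from the median library fell with gene length (Spearman correlation -0.47, a description over genes of 1 library), against -0.26 to 0.29 in the others. Without this library the count of lower genes dropped from 1194 to 488, while 562 genes were higher, so that the share of higher genes moved from 35.5% to 53.5%. The 10 most abundant genes took 13.1% ± 0.742 of the counts in AOB-H and 14.2% ± 0.816 in Sham-H (SD, n = 7 each, exact two-sided permutation test p = 0.0175, adjusted p = 0.0524 over 3 library measures). The share of ribosomal protein genes was 3.39% ± 0.447 and 3.46% ± 0.844 (SD, n = 7 each, exact two-sided permutation test p = 0.85).

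The lowest p belonged to Tgfa, which encodes transforming growth factor-α, a ligand of the EGF receptor. Its level was 0.874, 1.97 and 4.39 CPM (lowest, median, highest) in AOB-H and 0.428, 0.617 and 1.1 CPM in Sham-H, and its log2 fold change was 1.74 ± 0.34 (unadjusted p = 1.69e-05, adjusted p = 0.153). AOB-H replicates 1 to 5 lay above all 7 shams, and replicates 6 and 7 lay within their range. Ankrd23, a titin-binding ankyrin repeat protein of the sarcomere, had 45.5, 191 and 542 CPM in AOB-H and 35, 70 and 81.9 CPM in Sham-H (log2 fold change 1.88 ± 0.38, unadjusted p = 2.89e-05, adjusted p = 0.153). Again the same 5 AOB-H rats were above every sham and replicates 6 and 7 were not. The gap was widest for replicate 3 at 542 CPM and replicate 1 at 427 CPM.

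**Figure D1:**
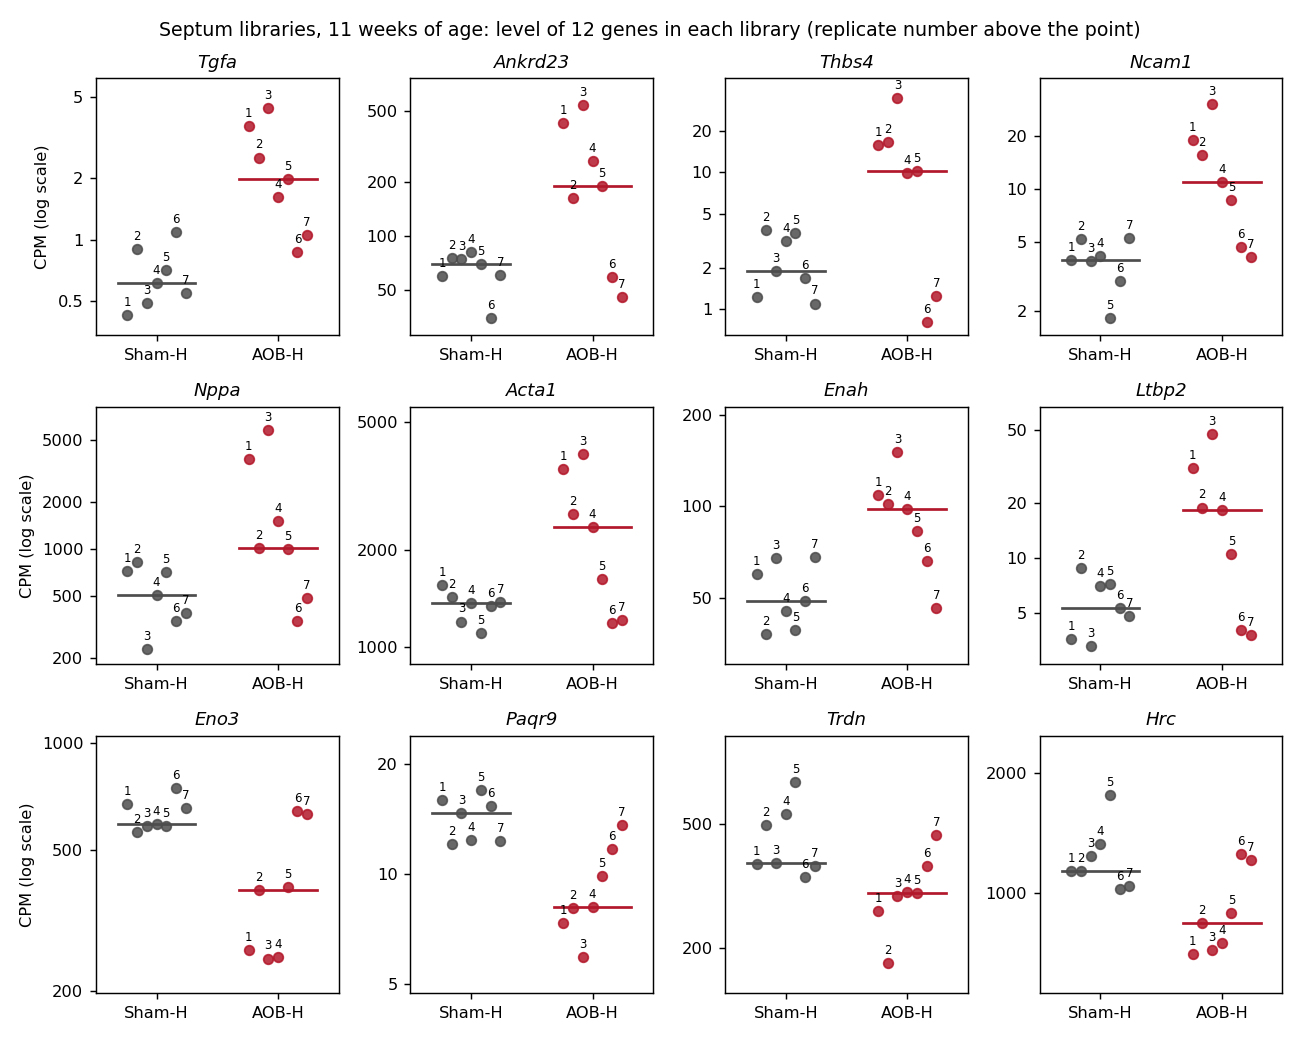
CPM on a log scale of 12 genes in the 7 Sham-H and 7 AOB-H septum libraries. Each point is 1 animal with its replicate number above it and the line is the group median. AOB-H replicates 6 and 7 sit among the shams for Tgfa, Ankrd23, Nppa and Eno3, while replicates 1 to 5 lie beyond all 7 shams for these genes.

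This split ran through the genes of lowest p. Over the 12 higher and 8 lower genes of lowest p with at least 1 CPM, AOB-H replicates 1, 2, 3, 4 and 5 lay beyond all 7 shams in the direction of the group in 18, 19, 19, 18 and 17 of 20 genes, whereas replicate 6 did so in 3 and replicate 7 in 5. These genes were chosen on the same libraries, so the counts describe the animals and are no test. Of all genes tested, 6 (0.0516%) had no overlap between the 7 and 7 libraries. Chance alone would separate a few of so many genes, so this count is no finding about them. The 6 genes were named after their values were seen. C4b, which encodes a complement component, and Enpp1, which makes extracellular pyrophosphate, were higher in AOB-H. The others, F8a1, Arl6, Noc4l and Rpusd4, were lower. C4b had 7.9, 9.8 and 13.6 CPM in AOB-H and 1.59, 6.92 and 7.71 CPM in Sham-H, with a log2 fold change of 0.72 ± 0.22 (unadjusted p = 0.00228), and the lowest sham was replicate 5, without which it was 0.57. Enpp1 was at 0.27 ± 0.14 (unadjusted p = 0.0566), with 18.2 to 20.1 CPM in AOB-H, 6.04 CPM in Sham-H replicate 5 and 17.1 to 18.1 CPM in the other shams, and at 0.14 without that library. Leaving out AOB-H replicate 6 gave 92 genes at an adjusted p under 0.05, 31 higher and 61 lower. Leaving out replicate 7 gave 13, 10 higher and 3 lower, and all 13 were among the 92. Leaving out any of the other 12 libraries gave 0.

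Among the stress and fetal genes, 10 of 19 tested were higher and 1 was lower, against 5.65% and 10.3% of all genes, and the median log2 fold change was 0.39 beside 0.00 over all genes. Without Sham-H replicate 5 the counts were 11 and 0, beside 562 higher and 488 lower of all 11622 genes in that fit. These numbers over all genes stand beside every list of genes and markers below. Nppa, which encodes atrial natriuretic peptide, had 346, 1018 and 5764 CPM in AOB-H and 230, 507 and 829 CPM in Sham-H (log2 fold change 1.90 ± 0.52, unadjusted p = 0.000991). AOB-H replicates 3 and 1, at 5764 and 3782 CPM, accounted for the upper end, and 5 of 7 rats were above every sham. Nppb, the gene of brain natriuretic peptide, differed less, with 393, 445 and 963 CPM in AOB-H and 295, 423 and 486 CPM in Sham-H (log2 fold change 0.48 ± 0.22, unadjusted p = 0.0354). Only replicates 1 and 3 exceeded the highest sham, and without replicate 3 the difference was 0.29.

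Acta1 encodes skeletal α-actin, which adult ventricles express at a low level and loaded ventricles at a higher one. It had 1188, 2362 and 3978 CPM in AOB-H and 1107, 1367 and 1559 CPM in Sham-H, with a log2 fold change of 0.81 ± 0.23 (unadjusted p = 0.00157), and 5 of 7 AOB-H rats were above every sham. Tceal7 had 11.8, 46.8 and 111 CPM in AOB-H and 9.1, 15.6 and 42.7 CPM in Sham-H (log2 fold change 1.19 ± 0.40, unadjusted p = 0.00582), and 4 of 7 rats exceeded the shams. Penk, the gene of the opioid precursor proenkephalin, had 274 to 538 CPM in AOB-H and 123 to 646 CPM in Sham-H (log2 fold change 0.47 ± 0.21, unadjusted p = 0.0329). Replicate 5 was the highest sham, and the next was at 344 CPM, below 6 of 7 AOB-H libraries, and without replicate 5 the difference was 0.72. Myh7, the slow β-myosin heavy chain, was 0.35 ± 0.19 on the log2 scale (unadjusted p = 0.0796, and 0.22 without AOB-H replicate 3), and Ankrd1, another titin-binding ankyrin repeat protein, was 0.13 ± 0.17 (unadjusted p = 0.442), and between 0.02 without AOB-H replicate 3 and 0.27 without Sham-H replicate 5. Tnni1, the slow skeletal troponin I of the fetal heart, was the member on the lower side, at -0.65 ± 0.28 (unadjusted p = 0.025), and at -0.22 without Sham-H replicate 2, whose level was 4.48 CPM beside a sham median of 1.29 CPM.

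The region around the start of 4 of these genes is shown, because they lay at both ends of the response and their promoters hold matches to motifs of muscle genes. The sequences run from 250 bases before to 50 bases after the start of the gene in RefSeq, build GRCr8, and capitals mark matches, on either strand, to M-CAT with the letters CATTCC, to the CArG box, or to the GATA motif with the letters AGATAA.
Ankrd23, chr9:46274461-46274760, minus strand: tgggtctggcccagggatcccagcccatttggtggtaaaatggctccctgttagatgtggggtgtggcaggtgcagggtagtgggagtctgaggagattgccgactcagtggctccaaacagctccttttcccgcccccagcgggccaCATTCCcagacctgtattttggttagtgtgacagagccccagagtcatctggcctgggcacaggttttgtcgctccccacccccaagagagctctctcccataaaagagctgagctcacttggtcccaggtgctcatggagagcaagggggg
Thbs4, chr2:25760296-25760595, minus strand: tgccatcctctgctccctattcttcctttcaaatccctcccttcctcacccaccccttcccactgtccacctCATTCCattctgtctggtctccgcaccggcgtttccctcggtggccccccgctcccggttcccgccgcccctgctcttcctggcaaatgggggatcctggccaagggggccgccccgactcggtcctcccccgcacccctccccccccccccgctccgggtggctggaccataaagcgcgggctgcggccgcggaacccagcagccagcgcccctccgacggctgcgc
Acta1, chr19:68784145-68784444, minus strand: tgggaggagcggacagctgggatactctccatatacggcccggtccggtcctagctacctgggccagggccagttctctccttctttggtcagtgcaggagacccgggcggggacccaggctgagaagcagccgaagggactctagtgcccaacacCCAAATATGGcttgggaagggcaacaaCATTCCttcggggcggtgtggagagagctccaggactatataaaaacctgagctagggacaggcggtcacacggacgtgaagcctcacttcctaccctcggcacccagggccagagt
Eno3, chr10:55868936-55869235, plus strand: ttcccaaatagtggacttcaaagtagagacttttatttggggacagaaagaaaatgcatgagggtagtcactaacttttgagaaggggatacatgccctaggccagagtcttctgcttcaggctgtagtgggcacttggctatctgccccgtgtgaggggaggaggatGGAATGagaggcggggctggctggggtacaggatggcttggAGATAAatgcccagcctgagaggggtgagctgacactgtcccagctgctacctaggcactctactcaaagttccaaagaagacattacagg
M-CAT began 102 bases before the start in Ankrd23, 178 in Thbs4 and 67 in Acta1, and the CArG box of Acta1 began 94 bases before it. Eno3, a gene lower in AOB-H, held M-CAT as well, 82 bases before the start, on the other strand. A promoter of this length was found for 9490 of the genes tested. M-CAT was in 11.2% of them, in 11.8% of the 518 higher genes with a promoter and in 9.84% of the 1006 lower ones. AP-1 (TGANTCA) was in 4.96% of all, 6.18% of the higher and 4.67% of the lower genes, and GATA in 6.41%, 8.49% and 7.85%. The E-box CACGTG was in 9.3%, 8.69% and 11%, the CArG box in 1.17%, 1.54% and 1.69%, and the MEF2 box in 1.69%, 1.93% and 1.49%. These shares describe letters in a window, and none was tested.

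Among growth factors and cytokines, 8 of 24 tested were higher (33.3%, beside 5.65% of all genes) and none was lower, with a median log2 fold change of 0.19. Beside Tgfa these included Tgfb2, a ligand of the TGF-β family, with 11.1, 19.1 and 40.4 CPM in AOB-H and 10.2, 12.9 and 15 CPM in Sham-H (log2 fold change 0.76 ± 0.23, unadjusted p = 0.002), and Inhbb, the βB subunit of activins, at 0.57 ± 0.19 (unadjusted p = 0.00581) and 0.37 without AOB-H replicate 3. For Tgfb2, 5 of 7 AOB-H rats were above every sham and for Inhbb 4 of 7.

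The matrix list had 7 of 28 genes higher (25%, beside 5.65% of all genes) and none lower, with a median log2 fold change of 0.18. Thbs4, which encodes the matricellular protein thrombospondin-4, had the largest difference of the list, with 0.807, 10.2 and 34.7 CPM in AOB-H and 1.1, 1.91 and 3.77 CPM in Sham-H (log2 fold change 2.47 ± 0.60, unadjusted p = 0.000274). Replicates 1 to 5 were above every sham, replicate 6 lay below every sham and replicate 7 within them. Ltbp2, a latent TGF-β binding protein of elastic fibers, had 3.77, 18.4 and 47.8 CPM in AOB-H and 3.28, 5.29 and 8.82 CPM in Sham-H (log2 fold change 1.76 ± 0.48, unadjusted p = 0.000911). Cilp, a matrix protein made by cardiac fibroblasts, had 10.6, 28.5 and 57.5 CPM against 11, 12.2 and 23.4 CPM (log2 fold change 1.12 ± 0.32, unadjusted p = 0.00132), with 4 AOB-H rats above and 2 below all shams. Col8a1, a short-chain network collagen, was at 0.67 ± 0.23 (unadjusted p = 0.00757). The main fibrillar collagens were not among them. Col1a1 had 144 to 340 CPM in AOB-H and 150 to 334 CPM in Sham-H (log2 fold change -0.07 ± 0.15, unadjusted p = 0.67), and Col3a1 650 to 1215 CPM and 715 to 1192 CPM (-0.07 ± 0.13, unadjusted p = 0.561), and leaving out 1 library moved them to between -0.17 and 0.0266 and between -0.15 and -0.00353.

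Further genes of lowest p on the higher side have roles in the membrane, the cytoskeleton and immune sensing. Sypl2, also called mitsugumin 29, a membrane protein of the muscle triad, had 2.96, 8.06 and 13.6 CPM in AOB-H and 2.07, 3.3 and 4.82 CPM in Sham-H (log2 fold change 1.26 ± 0.28, unadjusted p = 7.32e-05). Enah, an actin regulator of the intercalated disc, had 46.3, 97.6 and 151 CPM and 37.9, 49 and 67.9 CPM (0.83 ± 0.18, unadjusted p = 7.88e-05). Ncam1, a neural cell adhesion molecule that cardiomyocytes express under stress, had 4.07, 11 and 30.6 CPM and 1.83, 3.9 and 5.22 CPM (1.77 ± 0.43, unadjusted p = 0.000297). In each of these 3 genes 5 of 7 AOB-H rats exceeded all shams. Gba3 was at 1.61 ± 0.37, Phyhipl at 1.93 ± 0.49 and Mxi1, a repressor that competes with Myc for Max, at 0.27 ± 0.07 on the log2 scale. Lbp, the lipopolysaccharide-binding protein, was at 0.53 ± 0.12, Tlr4, the receptor that senses lipopolysaccharide, at 0.43 ± 0.11, and C3ar1, the receptor of complement fragment C3a, at 0.85 ± 0.21.

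Macrophage markers were higher as well, with 6 of 9 at an unadjusted p under 0.05 (beside 5.65% of all genes) and none lower. Without Sham-H replicate 5 all 9 were higher. Cd163, the hemoglobin scavenger receptor of resident macrophages, had 26.5, 36.9 and 71 CPM in AOB-H and 22.6, 25.5 and 34.3 CPM in Sham-H (log2 fold change 0.55 ± 0.15, unadjusted p = 0.00093), 5 of 7 AOB-H rats were above every sham, and the difference was 0.34 without AOB-H replicate 3. Adgre1 (F4/80) was at 0.40 ± 0.13 and Cd68 at 0.43 ± 0.16. The summed level of the 9 markers was 399 to 889 CPM in AOB-H and 335 to 551 CPM in Sham-H, with the highest value in AOB-H replicate 3, and the next AOB-H library was at 532 CPM. The part of the macrophage markers in the levels of C3ar1 and Tlr4 was not tested.

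The largest group on the lower side was the respiratory chain and citrate cycle. Of 32 genes tested, 21 were lower (65.6%, beside 10.3% of all genes) and none was higher. The median log2 fold change was -0.24, and 2 of the 32 had a positive value. Without Sham-H replicate 5, which had the highest level of these genes, 13 of 32 were lower and the median was -0.14. Over all genes, 488 of 11622 were lower in that fit. In library series 3 alone, 5 libraries of each group by the library number in the labels and without that sham, 6 of 32 were lower and the median was again -0.14. There 293 of all 11596 genes were lower. Ndufv1, the NADH-binding subunit of complex I, had 1073, 1198 and 1493 CPM in AOB-H and 1354, 1485 and 1892 CPM in Sham-H (log2 fold change -0.29 ± 0.08, unadjusted p = 0.00177). Mdh2, mitochondrial malate dehydrogenase, was at -0.27 ± 0.08 (unadjusted p = 0.0021), and Uqcrc1, a core protein of complex III, at -0.28 ± 0.09 (unadjusted p = 0.00245). For each of these 3 genes 4 of 7 AOB-H libraries were below every sham.

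Genes of fatty acid uptake and oxidation followed the same direction, with 11 of 30 lower (36.7%, beside 10.3% of all genes) and none higher. Their median log2 fold change was -0.17. Without Sham-H replicate 5, 5 of 30 were lower, beside 488 of all 11622 genes. In library series 3 alone 1 of 30 was lower, beside 293 of all 11596. Decr1, which removes double bonds from unsaturated fatty acids, had 154, 206 and 283 CPM in AOB-H and 224, 282 and 389 CPM in Sham-H (log2 fold change -0.39 ± 0.12, unadjusted p = 0.00286). Acads, short-chain acyl-CoA dehydrogenase, was at -0.37 ± 0.12, and Etfb, which passes electrons from these dehydrogenases to the respiratory chain, at -0.39 ± 0.14 (-0.23 without Sham-H replicate 5).

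In glucose uptake and glycolysis 6 of 25 genes were lower (24%, beside 10.3% of all genes) and none was higher. Without Sham-H replicate 5, 3 of 25 were lower, beside 488 of all 11622 genes. Eno3, the muscle enolase, led them with 247, 384 and 644 CPM in AOB-H and 561, 591 and 746 CPM in Sham-H (log2 fold change -0.64 ± 0.16, unadjusted p = 0.000454). Replicates 1 to 5 were below every sham, and replicates 6 and 7 lay at 644 CPM or just under it, within the shams. Without Sham-H replicate 5 the difference was -0.66. Slc2a4, the insulin-regulated glucose transporter GLUT4, was at -0.27 ± 0.09 (unadjusted p = 0.00516), and Pgam2, muscle phosphoglycerate mutase, at -0.36 ± 0.13 (unadjusted p = 0.00791) and -0.20 without Sham-H replicate 5.

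**Figure D2:**
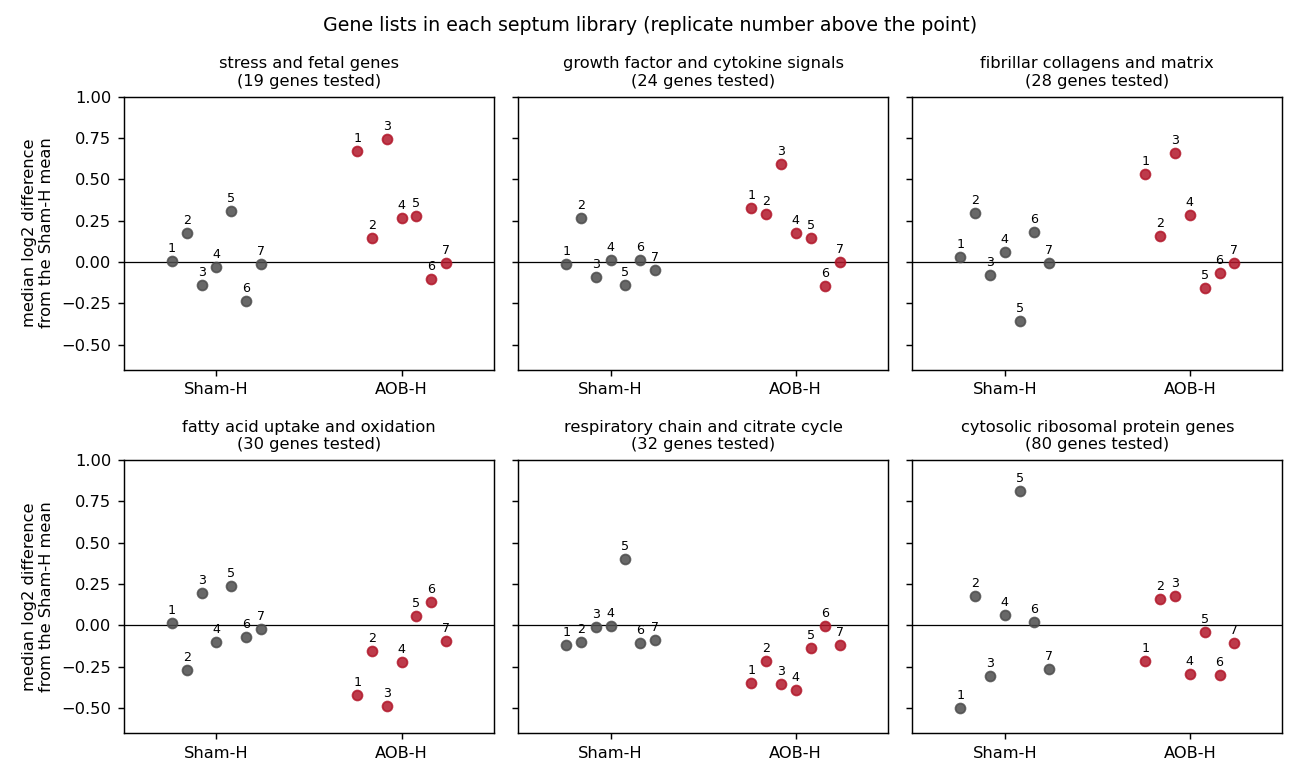
Median log2 difference of each library from the Sham-H mean over the tested members of 6 gene lists, with the replicate number above each point. Stress, growth factor and matrix lists lie highest in AOB-H replicates 1 and 3, while Sham-H replicate 5 is the highest library for the respiratory chain (0.40) and for ribosomal protein genes (0.81).

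Calcium handling showed 4 lower genes and 1 higher gene of 18 (22.2% and 5.56%, beside 10.3% and 5.65% of all genes). Hrc, a calcium-binding protein of the sarcoplasmic reticulum, had 705, 841 and 1256 CPM in AOB-H and 1028, 1137 and 1764 CPM in Sham-H (log2 fold change -0.44 ± 0.13, unadjusted p = 0.00191). Trdn, which anchors it at the release channel, was at -0.55 ± 0.18 (unadjusted p = 0.00467), and S100a1, a modulator of the calcium pump and the release channel, at -0.33 ± 0.13 (unadjusted p = 0.0144) and at -0.15 without Sham-H replicate 5. In Hrc and Trdn 5 of 7 AOB-H libraries lay below every sham. Without Sham-H replicate 5 the differences were -0.33 for Hrc and -0.41 for Trdn, and 2 members of the list were lower, beside 488 of all 11622 genes. Cacna1g, a T-type calcium channel of the fetal ventricle, was the higher member with 8.27, 15.6 and 23.2 CPM in AOB-H and 6.39, 9.84 and 12.4 CPM in Sham-H (0.71 ± 0.25, unadjusted p = 0.00848). Among the other ion channels and connexins, 1 of 19 was higher and 1 lower, and 0 and 2 without that sham. The first 2 counts are 5.26% each, beside 5.65% higher and 10.3% lower of all genes. Hcn4, the pacemaker channel, was at 0.92 ± 0.41 (unadjusted p = 0.0315) and Kcnd2, a channel of the transient outward current, at -0.45 ± 0.21 (unadjusted p = 0.0428) and -0.30 without Sham-H replicate 6.

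Sarcomere and cytoskeleton genes had 6 of 27 lower and 1 higher (22.2% and 3.7%, beside 10.3% and 5.65% of all genes). Without Sham-H replicate 5 there were 3 and 1, beside 488 and 562 of all 11622 genes. Tnni3, cardiac troponin I, had 6559, 7582 and 9759 CPM in AOB-H and 8307, 9800 and 17848 CPM in Sham-H (log2 fold change -0.44 ± 0.13, unadjusted p = 0.00254), and -0.26 without that sham. Tcap, the titin cap protein, was at -0.37 ± 0.13 and Tnnt2, cardiac troponin T, at -0.26 ± 0.10, and at -0.22 and -0.16 without it. Fhl1, a stretch-sensing LIM protein of the I-band, was the higher member, at 0.22 ± 0.10 (unadjusted p = 0.0384), with 5 of 7 rats above every sham.

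Few members of the other lists had an unadjusted p under 0.05, beside 5.65% higher and 10.3% lower over all genes. Heat shock and unfolded protein response had 2 higher (Hspb6 at 0.22 ± 0.08 and Hspb8 at 0.16 ± 0.07) and 2 lower members (Hspd1 at -0.18 ± 0.08 and Bag3 at -0.14 ± 0.06) of 32. Immediate early genes had 2 lower of 25, Zfp36 at -0.40 ± 0.15 and Nr4a1 at -0.54 ± 0.26 (-0.27 without Sham-H replicate 2), the clock genes 1 higher of 15, Clock at 0.22 ± 0.08, and the cell cycle genes 1 lower of 24, Pcna at -0.17 ± 0.07 (-0.07 without Sham-H replicate 5). No interferon-stimulated gene of 22 had an unadjusted p under 0.05. Of 80 ribosomal protein genes 1 was lower, Rpl36al at -0.39 ± 0.16 and at -0.10 without Sham-H replicate 5, and the median of the list turned from -0.15 to 0.04 without that library.

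The remaining genes of lowest p on the lower side were Dusp2, a phosphatase of MAP kinases, with 2.42, 3.22 and 3.56 CPM in AOB-H and 3.31, 5.21 and 8.5 CPM in Sham-H (log2 fold change -0.79 ± 0.18, unadjusted p = 0.000148), and Paqr9, with 5.91, 8.11 and 13.6 CPM and 12.1, 14.7 and 17 CPM (-0.63 ± 0.15, unadjusted p = 0.000231). For Paqr9 6 of 7 AOB-H libraries were below every sham. F8a1 had 31, 32.7 and 35.4 CPM and 35.7, 36.9 and 50.1 CPM, with no overlap, at -0.26 ± 0.07. Zfp955a was at -0.35 ± 0.08, Gtpbp10 at -0.34 ± 0.09, Cfap20 at -0.32 ± 0.08 and Mettl25 at -0.32 ± 0.08. Sham-H replicate 5 was the highest sham for every gene of this paragraph. Leaving out 1 library brought Dusp2 to -0.65 at the smallest, Paqr9 to -0.54 and F8a1 to -0.19. The smallest values were -0.29 for Zfp955a, -0.30 for Gtpbp10, -0.25 for Cfap20 and -0.25 for Mettl25.

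The tissue carried the markers of ventricular muscle. The summed level of 9 cardiomyocyte markers was 68920 to 92873 CPM in AOB-H and 83670 to 116449 CPM in Sham-H, with 4 of 9 lower (2 of 9 without Sham-H replicate 5, the highest library), and Myl3 was at -0.31 ± 0.13, and at -0.08 without that library. Atrial markers summed to 145 to 248 CPM in AOB-H and 180 to 627 CPM in Sham-H, where 2 shams, at 544 and 627 CPM, exceeded all other libraries, namely replicates 2 and 5. Sln was at -2.58 ± 1.05 and Myl4 at -1.77 ± 0.81, and without replicate 5 they were at -1.94 and -0.85, neither with an unadjusted p under 0.05. Conduction system markers summed to 74 to 95.7 CPM in AOB-H and 57.3 to 91.2 CPM in Sham-H, with Isl1 at 0 in all 14 libraries. Of the 7 tested, Hcn4 and Tbx3 (0.39 ± 0.19) were higher and Shox2, at or under 1.05 CPM in every library, was lower, and none without Sham-H replicate 5. Fibroblast markers summed to 2040 to 2501 CPM and 1817 to 2934 CPM, with Pi16 at 0.63 ± 0.21 (0.38 without AOB-H replicate 3) and Tcf21 at -0.29 ± 0.10. Endothelial markers (1244 to 1592 CPM and 1088 to 1605 CPM) had no member at an unadjusted p under 0.05, and mural markers (515 to 660 CPM and 306 to 673 CPM) had 1, Pdgfrb at 0.17 ± 0.08. Lymphocyte markers summed to 7.46 to 9.34 CPM and 7.55 to 12.1 CPM, adipocyte markers to 11.5 to 25.7 CPM and 10.7 to 32.4 CPM, and mesothelial markers to 21.2 to 32 CPM and 19.5 to 30.2 CPM, with no member called in any of these. Schwann and neuronal markers summed to 30.1 to 37.4 CPM and 30.1 to 53 CPM, with Dbh, the noradrenaline-forming enzyme, at 0.79 ± 0.21 and Gfra3 at -0.60 ± 0.18. Red blood cell markers lay at 1161 to 1833 CPM and 838 to 2287 CPM, with Hba1 at 0. Hba2, at -0.73 ± 0.28, was the only 1 of 5 tested with an unadjusted p under 0.05. Its means were 0.71 CPM in AOB-H and 1.2 CPM in Sham-H, beside 1279 and 1504 CPM for Hbb, which was at -0.23. Of the skeletal muscle markers 4 of 6 tested were lower, among them Mylpf, Myh2 and Tnni2, whose sham levels reached 20.2, 8.78 and 12.9 CPM in replicate 2 beside sham medians of 0.48, 0.206 and 0.504 CPM. Without replicate 2 their log2 fold changes, -2.92, -3.65 and -2.40 with all 14 libraries, were -0.05, -0.22 and -0.19. The other lower member was Ckm, at -0.30, with means of 4061 CPM in AOB-H and 4990 CPM in Sham-H. Its level in Sham-H replicate 5 was 7060 CPM. The part of these cell types in the differences above was not tested.

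The rats in left heart failure give values from other animals for the same wall. In AOB-F against Sham-LF, in the same fit, 27 genes passed at an adjusted p under 0.05 (0.232%) and 1420 had an unadjusted p under 0.05 (12.2%). Of the 20 genes of lowest p in AOB-H, 19 had the same direction in AOB-F, and 14 also an unadjusted p under 0.05 there. Ncam1 was at 2.62 ± 0.63 in AOB-F, Nppa at 3.58 ± 0.83, Ankrd23 at 2.23 ± 0.57 and Thbs4 at 2.50 ± 0.88 on the log2 scale. Tlr4 was the exception at 0.00 ± 0.16. Over all genes tested 69.1% had the same direction in both comparisons, over the 657 higher genes 87.2% and over the 1194 lower genes 92.2%.

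**Figure D3:**
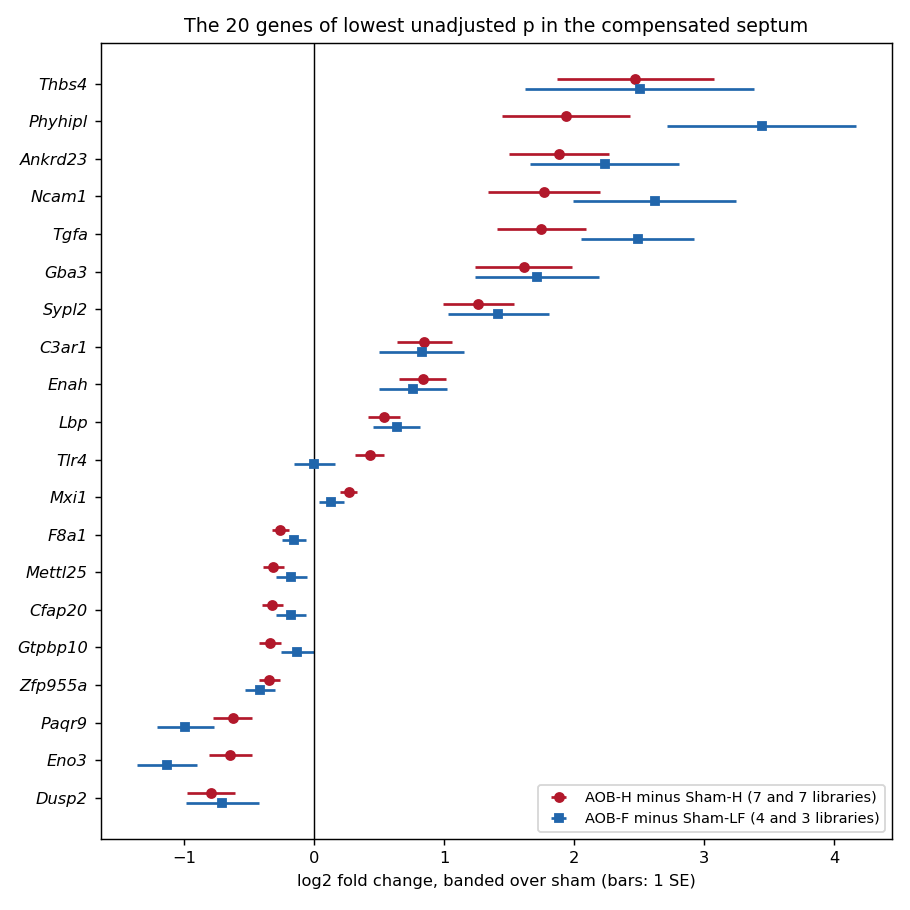
Log2 fold change with 1 SE of the 20 genes of lowest unadjusted p in AOB-H against Sham-H (red circles) and of the same genes in AOB-F against Sham-LF (blue squares). 19 of 20 genes lie on the same side of 0 at both stages, and Tlr4 lies at 0 in AOB-F.

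Read the other way, the 27 genes were chosen in rats that share no library with AOB-H. All 27 had the same direction in AOB-H, 18 on the higher and 9 on the lower side, and 19 of 27 had an unadjusted p under 0.05 there, beside 15.9% of all genes. Every one of the 27 differences was smaller in AOB-H than in AOB-F, where the genes had been chosen for their size. Tgfa (1.74 ± 0.34 in AOB-H and 2.49 ± 0.44 in AOB-F) was among them, as were Eno3 (-0.64 ± 0.16 and -1.13 ± 0.23), Paqr9 (-0.63 ± 0.15 and -0.99 ± 0.22) and Phyhipl (1.93 ± 0.49 and 3.44 ± 0.73). Xirp2, an actin-binding protein of the intercalated disc and Z-disc, was at 0.75 in AOB-H and 1.53 in AOB-F. By animal, AOB-H replicates 1, 2, 3, 4 and 5 were above all shams in 16, 14, 16, 12 and 10 of the 18 higher genes, replicate 6 in 4 and replicate 7 in 1. For the 9 lower genes the counts below all shams were 9, 8, 9, 7 and 4, and 3 and 0. The test of the difference between stages passed for no gene of 11624 by edgeR's quasi-likelihood test, with 339 at an unadjusted p under 0.05 and DESeq2 called 0 genes at an adjusted p and 419 at an unadjusted p under 0.05. For Nppa the difference between stages was 1.68 ± 0.90 and for Phyhipl 1.51 ± 0.94 on the log2 scale.

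**Figure D4:**
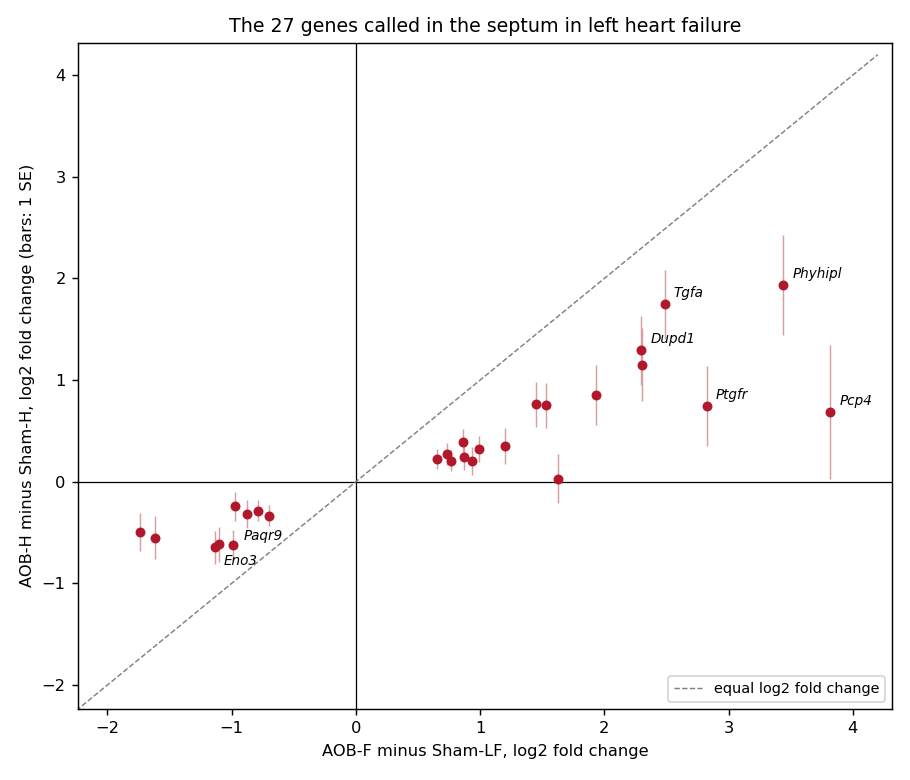
Log2 fold change in AOB-F against Sham-LF (horizontal) and in AOB-H against Sham-H (vertical, bars 1 SE) of the 27 genes called in AOB-F. All 27 have the same sign, and all lie closer to 0 in AOB-H than the dashed line of equal change.

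The LV and RV of the same 14 rats share animals with the septum, so their values are given side by side only. Ankrd23 was at 1.88 ± 0.38 in Spt, 1.78 ± 0.43 in LV and 1.97 ± 0.67 in RV on the log2 scale. Acta1 was at 0.81 ± 0.23, 0.67 ± 0.28 and 0.62 ± 0.51, and Tgfa at 1.74 ± 0.34, 0.78 ± 0.47 and 0.75 ± 0.51. Other named genes were near 0 in LV. Nppa was at 1.90 ± 0.52, 0.17 ± 0.56 and 1.70 ± 1.05, and Lbp at 0.53 ± 0.12, 0.13 ± 0.16 and 0.19 ± 0.16. Gtpbp10 was at -0.34 ± 0.09, 0.03 ± 0.10 and -0.05 ± 0.07. The LV and RV values include AOB-H replicate 1 and Sham-H replicate 6, whose ventricle labels are in doubt. Without these 2 rats, a choice made after seeing the data, Ankrd23 was at 1.73 ± 0.44 in LV and 1.32 ± 0.66 in RV, Acta1 at 0.56 ± 0.29 and 0.29 ± 0.51, and Tgfa at 1.30 ± 0.50 and 0.54 ± 0.57. Nppa was then at 0.91 ± 0.56 in LV and 0.51 ± 1.07 in RV. Lbp was at 0.18 ± 0.18 and 0.07 ± 0.17, and Gtpbp10 at -0.05 ± 0.10 and -0.06 ± 0.07. The difference between the responses passed for no gene of 11924, neither Spt minus LV (281 at an unadjusted p under 0.05) nor Spt minus RV (282), in edgeR's test or by voom with the animal as a random block. The respiratory chain list had a median of -0.24 in Spt, -0.08 in LV and 0.01 in RV, and -0.18 in LV and -0.05 in RV without these rats. In Spt it was -0.14 without Sham-H replicate 5, so these medians do not show a larger fall in Spt than in LV. In pulmonary-banded rats of the same stage (PAB-H), compared with the same 7 shams, Ankrd23 in Spt was at -0.07 ± 0.38, Nppa at -0.44 ± 0.51 and Tgfa at 0.20 ± 0.39.

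The labels of 2 of these rats bear on the ventricles. The difference between the libraries labelled LV and RV correlated with the mean of the other animals over 8923 genes at -0.72 for AOB-H replicate 1 and at -0.70 for Sham-H replicate 6, and at 0.28 to 0.78 for the other 12 rats. This check does not bear on their Spt libraries, and the LV values of these rats are those of the library so labelled. For Nppa the AOB-H libraries labelled LV held 1045, 1345, 4619, 1316, 1550, 269 and 423 CPM in replicates 1 to 7, beside 3782, 1018, 5764, 1513, 998, 346 and 487 CPM in Spt. Replicates 6 and 7 were the lowest in both walls and, by these labels, replicate 3 the highest. The library of replicate 1 labelled RV held 6688 CPM of Nppa, so the rank of replicate 3 in LV rests on a label in doubt. Ankrd23 in LV was 93.9, 133, 578, 188, 104, 49.1 and 46.3 CPM in the same order, again lowest in replicates 6 and 7. Because replicates 6 and 7 lie apart from the other 5 for Nppa, Ankrd23, Acta1, Tceal7 and Tgfa, no correlation is given for those genes. Correlations between Spt and LV over the 7 AOB-H rats were computed for 12 genes. The adjustment covered all 12, including the genes not given, whose low p values make the adjusted p of the others smaller. For Myh7 Pearson's r was 0.88 (exact permutation p = 0.00397, adjusted p = 0.0159 over 12 genes) and Spearman's rho 0.79 (exact permutation p = 0.048, adjusted p = 0.0994), with r = 0.67 without the 2 rats farthest from the septal median and r = 0.91 without replicate 1. For Col1a1 r was 0.84 (exact permutation p = 0.0155, adjusted p = 0.0448) and rho 0.86 (exact permutation p = 0.0238, adjusted p = 0.0714), with r = 0.88 without the 2 farthest rats. Without replicate 1 r was 0.83 and its adjusted p 0.0854. For Col3a1 r was 0.78 (exact permutation p = 0.0357, adjusted p = 0.0612) and rho 0.89 (exact permutation p = 0.0123, adjusted p = 0.0492), with r = 0.94 without the 2 farthest rats. Without replicate 1 r was 0.75 and its adjusted p 0.111. Nppb, Penk, Col8a1 and Ankrd1 had r between 0.35 and 0.71, none with an exact permutation p under 0.05. Without replicate 1 their r was 0.75, 0.73, 0.73 and 0.61, with an exact permutation p under 0.05 after adjustment for Penk only (adjusted p = 0.0333).

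**Figure D5:**
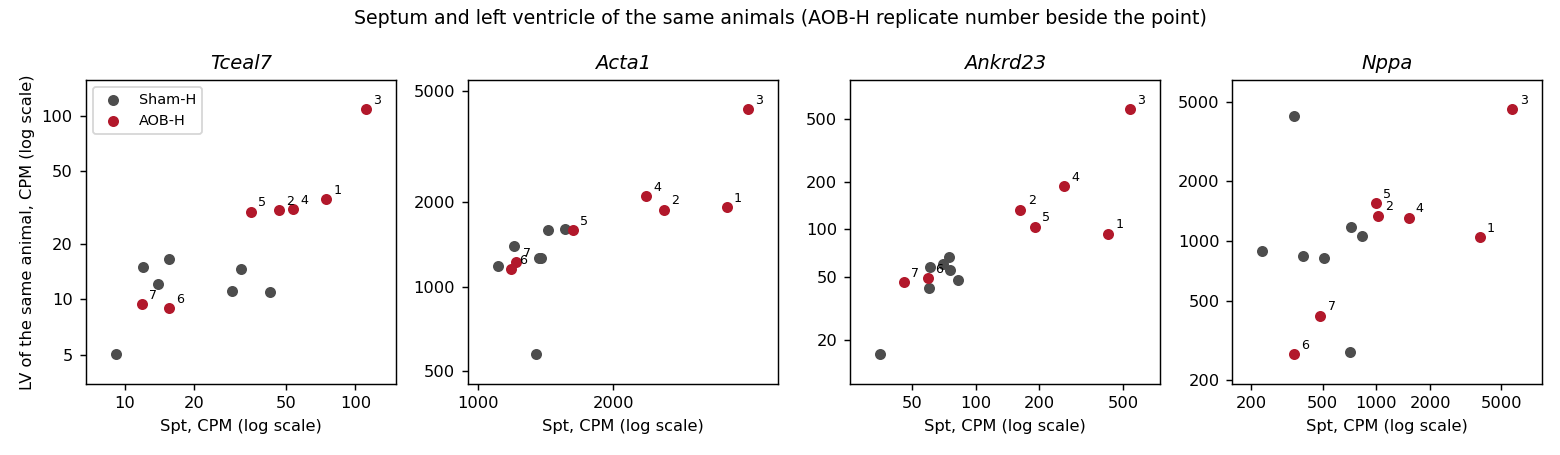
CPM on log scales in the septum (horizontal) and in the library labelled LV of the same rat (vertical) for 4 genes, in 7 AOB-H (red, numbered) and 7 Sham-H rats (grey). AOB-H replicate 3 is highest in the septum and among the libraries labelled LV, where the label of replicate 1 is in doubt. Replicates 6 and 7 lie among the shams in the septum.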

How the data were processed

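Septum libraries of AOB-H and Sham-H rats were grouped by their titles. Per the labels and the methods, the authors used Trim Galore for trimming, STAR for alignment of single-end reads to Rnor6.0 and featureCounts for counting. The deposited table holds whole-number counts of 17337 genes, and the tests used these. The deposited normalized counts, a linear signal, are counts scaled with DESeq2 by the authors, and the deposited FPKM values gave relative gene lengths. Whether counting used the strand is not given in the sources used here, so overlapping genes are uncertain.

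All 33 Spt libraries of 7 conditions entered 1 edgeR quasi-likelihood fit (edgeR 4.0.16, R 4.3.3) with TMM scaling, filterByExpr and Benjamini-Hochberg adjustment. Differences between walls came from a fit of 99 libraries with 21 groups. The procedure was tested on simulated data, where it called 100 of 100 genes changed 2-fold, with 7 false calls. The simulated counts held no library apart from the rest and no banded rats at sham level. Recovery in libraries like the real ones was therefore not measured. Named genes are a fixed panel of 12, the 12 higher and 8 lower genes of lowest p (1 CPM or more on average in whichever group was higher, without LOC, RGD and Mir symbols), and up to 3 genes per list and direction. The members and lists were chosen with earlier results of these data known. Alternatives used DESeq2 1.42.0 and limma 3.58.1, other filters and scalings, library series and left-out libraries. Correlations used log2(CPM + 0.5). Each library is 1 animal, and within-group pairs differed by more than counting noise. Promoters are from RefSeq, GRCr8, matched by NCBI identifier or symbol. The authors' own fold changes were not used here.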

Additional observations from a re-analysis of the deposited data

Results flagged for a closer look

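Gaps between 1 library and the rest of its group of 7 were examined in 96 sets of values (named genes, marker sums and library measures) by Dixon's criterion, which chance meets in about 1 in 20 groups, and 11 were large. Of these, 7 were Sham-H replicate 5, with a TMM factor of 0.789 (next 0.974), a first principal component of -73.3 (next -14.8), 116449 CPM of summed cardiomyocyte markers (next 96926), 7075 CPM of summed skeletal muscle markers (next 5420), 11706 CPM of Ankrd1 (next 7559), 646 CPM of Penk (next 344) and 15.9 CPM of Mettl25 (next 12.9). The skeletal muscle sum of this library was nearly all from 1 gene, Ckm, at 7060 CPM. In AOB-H, replicate 7 had 274 CPM of Penk (next 435), replicate 3 had 889 CPM of summed macrophage markers (next 532), replicate 2 had 10.4 CPM of Tlr4 (next 8.57) and replicate 6 had 23 CPM of Gtpbp10 (next 18). The cause was not tested.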

How the results depend on the processing

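The count of genes at an adjusted p under 0.05 was 0 in AOB-H against Sham-H under both scalings, the filters tried, 14 or 99 libraries, library series as a covariate or alone, the replicate block, and without the animals of AOB-H 1 and Sham-H 6. DESeq2 called 1 gene and voom with quality weights 2, and leaving out 1 library gave 0 to 92. The 1851 genes at an unadjusted p under 0.05 (657 higher, 1194 lower) became 853 (348 and 505) in 14 libraries alone, 285 (140 and 145) in library series 2, 705 (412 and 293) in library series 3, and 356 higher in the fit of 99 libraries. Without 1 library they were 1050 to 2482 (422 to 1002 higher, 488 to 1480 lower), and the lowest count was without Sham-H replicate 5. Same-numbered libraries of both groups come from different animals and share the number and the library series. Their deviations correlated at -0.23 to 0.19. The replicate block on that number gave 719 genes (327 and 392) and 0 at an adjusted p under 0.05.

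Of the genes named, Col1a1 turned to 0.23 in library series 2, and lay at -0.17 to 0.0266 without 1 library, above 0 without AOB-H replicate 5 or Sham-H replicate 2. Col3a1 turned to 0.11 in library series 2, and Ankrd1 to -0.00675 in library series 2 and -0.00592 without the animals of AOB-H 1 and Sham-H 6. With voom quality weights Sln was at 0.14 and Myl4 at 0.65. Differences between walls and stages passed for 0 genes under every alternative tried. The cause was not tested. List counts under each alternative, and LV and RV without AOB-H 1 and Sham-H 6 (0 genes at an adjusted p under 0.05, 703 in LV and 167 in RV at an unadjusted p), were added after seeing the data.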
